A study of Homo sapiens with 6 samples.

Results

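Translation initiation and elongation factors were described in DLD1 cells, an established human colorectal cancer cell line. Members were the protein-coding rows whose symbol starts with EIF or EEF followed by a digit, leaving out the eIF2 kinases named EIF2AK. There were 60 such genes among 21519 genes of the co-culture expression table, and 45 of them were among the 9450 genes of the knockdown table, which holds genes with a listed m7G peak. EIF1AY was counted among the 60, but its level is not printed. Members were grouped by complex into eIF1 and eIF1A, eIF2, eIF2B, eIF3, eIF4F with its partners, eIF4E inhibitors and transport, the group of eIF5, eIF5A, eIF5B and eIF6, eEF1, eEF2, and the enzymes that methylate elongation factors.

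Initiation factors bring the small ribosomal subunit, the initiator tRNA and the mRNA together: eIF4F binds the mRNA cap, eIF3 and eIF1A bind the small subunit, and eIF2 delivers the initiator tRNA and is recharged with GTP by eIF2B. Elongation factor eEF1A brings aminoacyl-tRNAs to the ribosome, and eEF2 moves the ribosome along the mRNA. Many mRNAs of the translation machinery begin with a run of pyrimidines, the 5′ terminal oligopyrimidine (TOP) start, through which mTOR signalling is known to control their translation. 7-Methylguanosine (m7G) is the base of the mRNA cap and also occurs inside tRNA and other RNAs, where METTL1 with its partner WDR4 writes it.

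The study had 6 libraries, 1 in each group, all of DLD1. RNA-seq was done on wild-type cells in co-culture with S-CAFs (library S-CAFs-w13) and on wild-type cells in library DLD1-W13CM, which was taken as the CAF co-culture by elimination only, since its label does not name its partner cells. The title names senescent CAFs, that is, cancer-associated fibroblasts. The other 4 libraries were m7G immunoprecipitates (IP) and inputs of cells with stable METTL1 knockdown by 1 construct, sh2, and of control cells, sh-NT; RNA levels from these cells are input levels. With 1 library in each group there is no replicate check and no p-value across libraries, and intervals in parentheses are 95% intervals of the fold that cover counting error only. RNA levels are in FPKM (fragments scaled for gene length and sequencing depth), folds are plain FPKM ratios, and "past 2-fold" was counted on the log2(FPKM + 1) scale over genes whose mean reached 1 FPKM. That scale understates changes of low genes. Levels in the co-culture and knockdown tables were scaled separately and are set side by side without a comparison. Fewer cells of a kind and less RNA per cell cannot be told apart in such bulk libraries.

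The effective library sizes recovered from the values were between 6215547 and 11625162 fragments. METTL1 itself was at 5.80 FPKM in control input and 3.28 FPKM in knockdown input, 1.77-fold lower (1.37 to 2.29). In the co-culture table METTL1 was at 4.82 FPKM (DLD1-W13CM) and 1.78 FPKM (S-CAFs-w13), 2.71-fold lower (1.75 to 4.29). All 8 epithelial markers looked for were in the co-culture table, 4 higher and 4 lower in S-CAFs-w13: EPCAM was at 154 and 149 FPKM and KRT18 at 892 and 1593 FPKM, with KRT19 (120.4 and 273 FPKM) and CEACAM5 (0.848 and 4.13 FPKM) past 2-fold higher and CDX2 (19.0 and 6.83 FPKM) past 2-fold lower. Of 18 fibroblast markers 10 were in the co-culture table, summing to 10.6 FPKM (DLD1-W13CM) and 12.95 FPKM (S-CAFs-w13). Of these 3 passed the filter on low values, S100A4 at 4.77 and 7.53 FPKM, FN1 at 3.12 and 1.71 FPKM and ACTA2 at 1.80 and 1.51 FPKM, while COL1A1 (0.0482 and 0.229 FPKM) and PDGFRB (0.0221 and 0.564 FPKM) were near 0. Leukocyte markers (1 of 5 in the table) summed to 1.17 and 1.54 FPKM, and the 4 endothelial markers to 1.29 and 2.39 FPKM. Genes of the mitochondrial genome took 20% (DLD1-W13CM) and 15.0% (S-CAFs-w13) of recovered reads. The part of these differences in the results below was not tested.

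In co-culture EEF1A1, EEF1A2 and EEF2 were higher in S-CAFs-w13, and EIF5, EIF5A, EIF6, EIF4G1, EIF4G2 and EIF4EBP2 were lower. Summed over the 60 members, their RNA was at 3399 FPKM (DLD1-W13CM) and 4109 FPKM (S-CAFs-w13), a ratio of 1.21. Without EEF1A1 the sums were 2420 and 2490 FPKM, a ratio of 1.03. All 60 passed the filter on low values. Of these 27 had the higher value in S-CAFs-w13 and 33 the lower, beside 52.3% of 14739 genes higher. Within 1.25-fold lay 27 members, beside 4549 of 14739 genes. The members' median log2 ratio was -0.08, beside 0.02 over all 14739 genes. There were 3 members past 2-fold higher (EEF1A2, EEF1AKMT3 and EIF2A), beside 9.08% of all genes, and 4 past 2-fold lower (EIF5, EIF4EBP2, EIF4G2 and EEF1AKMT1), beside 7.92% of all genes. At 3 and 4 of 60 the members lie under these shares, so the counts do not set them apart from other genes. The split moves with the scaling. The log2 fold changes of the authors' deposited table lie 0.14 below the log2 FPKM ratio in the median. With them it was 3 higher and 9 lower, beside 1673 and 2381 of all 14739 genes. EIF2A was then short of 2-fold (0.90), and EIF4E3, a low gene, reached it (1.00). With both libraries rescaled without mitochondrial genes it was 2 and 7, beside 1325 and 1489 of 15527 genes, again with EIF2A short of 2-fold. Centred on the median of all genes it was 2 and 5, beside 1287 and 1208 of 14739 genes, with EIF2A then just short of 2-fold and EIF5A past it.

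**Figure D1:**
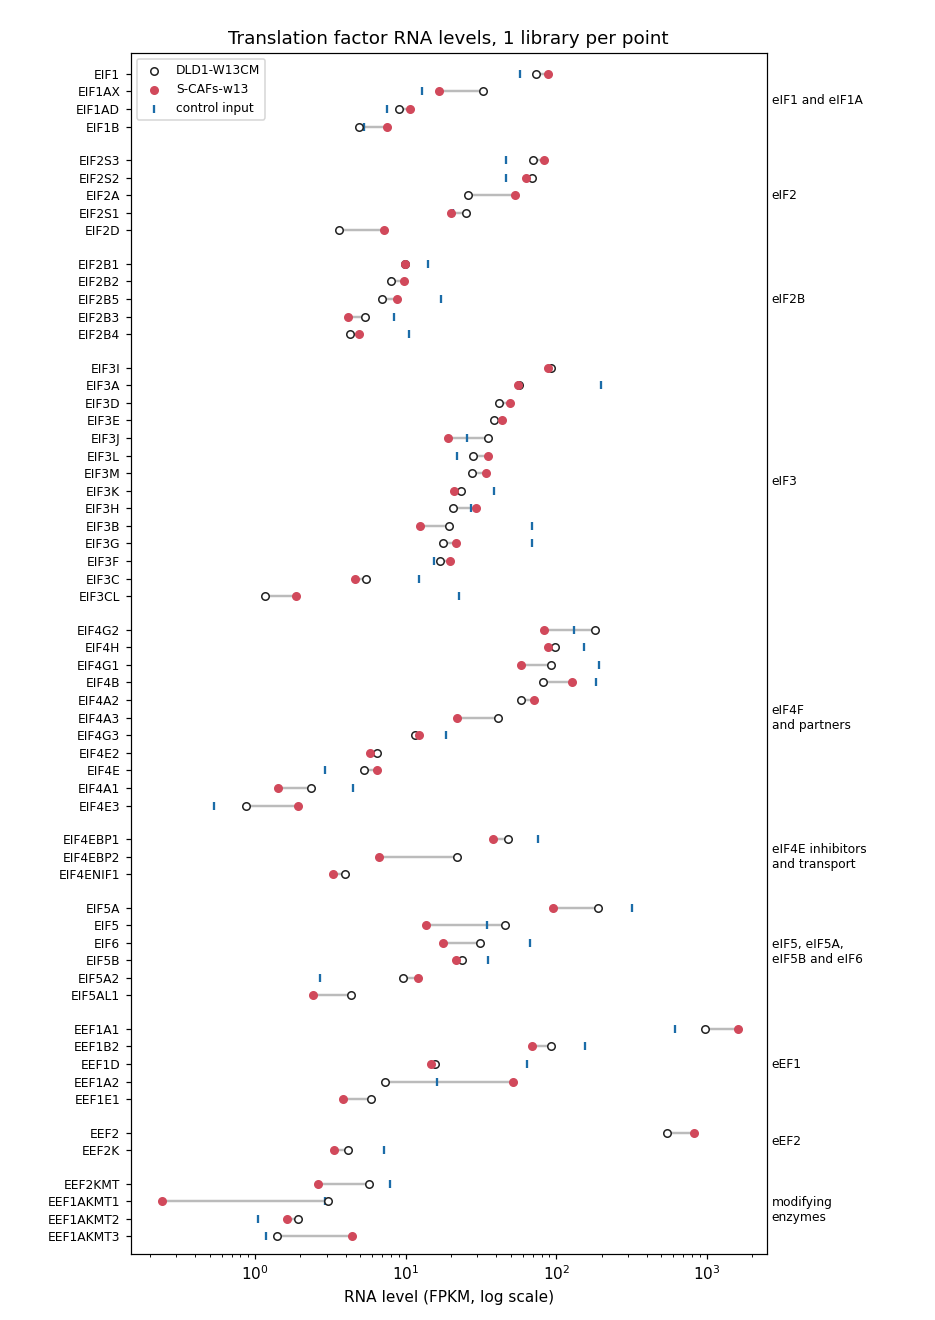
RNA level of each factor on a log axis in FPKM, grouped by complex, with 1 library per point: open circles are DLD1-W13CM, red circles S-CAFs-w13, and blue ticks control input where the gene is in the knockdown table. Lines join both co-culture libraries; EEF1A1 and EEF2 are the 2 highest, and EIF5, EIF4EBP2 and EIF4G2 lie lower in S-CAFs-w13, and EEF1A2 higher.

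The elongation factors held the highest levels and the largest upward fold. EEF1A1, the main form of eEF1A, was at 979 FPKM (DLD1-W13CM) and 1619.6 FPKM (S-CAFs-w13), 1.65-fold higher (1.63 to 1.68). It was at 612 FPKM in control input and 599 FPKM in knockdown input, so that the knockdown value lay 1.02-fold lower. EEF1A2, the form of eEF1A best known from muscle and neurons, was at 7.31 and 51.5 FPKM, 7.04-fold higher in S-CAFs-w13 (5.66 to 8.85). In the knockdown table EEF1A2 stood at 16.1 and 15.4 FPKM. EEF2, the translocase, was at 546 FPKM (DLD1-W13CM) and 819.5 FPKM (S-CAFs-w13), 1.5-fold higher (1.47 to 1.53).

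The exchange factor of eEF1A and the eEF2 kinase were on the other side. EEF1B2, the beta subunit that reloads eEF1A with GTP, was at 92.3 FPKM (DLD1-W13CM) and 69.3 FPKM (S-CAFs-w13), 1.33-fold lower (1.22 to 1.46). EEF1D, the delta subunit, was at 15.7 and 14.9 FPKM, and EEF1E1, which sits in the aminoacyl-tRNA synthetase complex, at 5.92 and 3.82 FPKM. EEF2K, the kinase that inactivates eEF2 by phosphorylation, was at 4.17 and 3.33 FPKM, 1.25-fold lower (1.02 to 1.54). The eEF1 sum of 1100.1 FPKM (DLD1-W13CM) and 1759 FPKM (S-CAFs-w13) is thus mostly EEF1A1. A further 12 rows named as EEF1A1 pseudogenes summed to 62.8 and 109.5 FPKM, the same direction as EEF1A1, and reads of such near-identical copies cannot be assigned with certainty.

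Among the modifying enzymes, EEF1AKMT3, which methylates a lysine of eEF1A, was at 1.39 FPKM (DLD1-W13CM) and 4.41 FPKM (S-CAFs-w13), 3.17-fold higher (2.05 to 5.04). EEF1AKMT1, another eEF1A lysine methyltransferase, was at 3.06 and 0.240 FPKM, a 12.7-fold lower value whose interval of 3.19 to 111 reflects 26 and 2 recovered reads. EEF2KMT, which methylates eEF2, was at 5.75 and 2.62 FPKM, 2.19-fold lower (1.56 to 3.11), but short of 2-fold on the log2(FPKM + 1) scale. The enzymes thus did not move one way in co-culture.

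In the group of eIF5, eIF5A, eIF5B and eIF6, 5 of 6 genes were lower in S-CAFs-w13, beside 7029 of all 14739 genes. The group had a median log2 ratio of -0.71 and summed to 305 FPKM (DLD1-W13CM) and 163 FPKM (S-CAFs-w13). EIF5, which makes eIF2 hydrolyse GTP once the start codon is found, was at 45.6 FPKM (DLD1-W13CM) and 13.6 FPKM (S-CAFs-w13), 3.34-fold lower (3.07 to 3.63). EIF5A, the hypusine-carrying factor that helps ribosomes through stalling sequences, was at 190.4 and 95.2 FPKM, 2.0-fold lower (1.89 to 2.12). Its copies EIF5AL1 (4.31 and 2.43 FPKM) and 2 EIF5A pseudogenes (8.49 and 0.700 FPKM summed) were lower too and may share its reads. EIF6, which keeps the large subunit from joining too early, was at 31.2 and 17.8 FPKM, 1.76-fold lower (1.46 to 2.12). EIF5B, the GTPase of subunit joining, was at 23.7 and 21.7 FPKM, and EIF5A2, the second eIF5A gene, was the exception at 9.59 and 12.1 FPKM. In the knockdown table these genes stayed close together: EIF5 was at 34.7 and 30.3 FPKM, EIF5A at 319 and 326 FPKM, and EIF6 at 66.8 and 71.1 FPKM.

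The cap-binding group was mixed. EIF4E, which binds the cap, was at 5.28 FPKM (DLD1-W13CM) and 6.42 FPKM (S-CAFs-w13), 1.21-fold higher (1.07 to 1.38). EIF4G1, the scaffold that joins eIF4E, eIF4A and eIF3, was at 92.5 and 58.5 FPKM, 1.58-fold lower (1.51 to 1.66). EIF4G2, a related scaffold that lacks the eIF4E-binding part and serves cap-independent initiation, was at 182 and 83.2 FPKM, 2.19-fold lower (2.11 to 2.27). EIF4G3, the remaining eIF4G scaffold, was at 11.6 and 12.2 FPKM (1.06-fold higher, 0.951 to 1.17), so the scaffolds did not all go one way. EIF4B, the cofactor of the eIF4A helicase, was at 81.1 and 128 FPKM, 1.58-fold higher (1.51 to 1.65). EIF4A2, a helicase of eIF4F, was at 58.2 and 71.8 FPKM, and EIF4A3, the related helicase of the exon junction complex, at 40.9 and 22.1 FPKM, 1.85-fold lower (1.69 to 2.04). EIF4E3, an eIF4E relative, was at only 0.878 and 1.94 FPKM.

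EIF4A1, the main eIF4A helicase, was listed at only 2.34 FPKM in DLD1-W13CM, 1.42 in S-CAFs-w13, 4.46 in control input and 5.29 in knockdown input. Its RefSeq locus overlaps the readthrough gene SENP3-EIF4A1 and the small nucleolar RNA genes SNORA48, SNORA67 and SNORD10, and reads of overlapping genes cannot be told apart here, so its level is uncertain. SENP3-EIF4A1 had its own row at 0.224 FPKM (DLD1-W13CM) and was listed at 0 for S-CAFs-w13.

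All 3 genes of eIF4E inhibition and transport were lower in S-CAFs-w13. EIF4EBP2, which holds eIF4E away from eIF4G until mTOR phosphorylates it, was at 21.8 FPKM (DLD1-W13CM) and 6.63 FPKM (S-CAFs-w13), 3.29-fold lower (2.89 to 3.76). EIF4EBP1, its better-known relative, was at 47.8 and 38.2 FPKM, 1.25-fold lower (1.06 to 1.48). EIF4ENIF1, which carries eIF4E into the nucleus, was at 3.94 and 3.31 FPKM (1.19-fold lower, 0.935 to 1.52), where the interval spans 1. EIF4EBP1 was also lower in knockdown input, at 57.7 FPKM against 75.7 FPKM in control input, 1.31-fold lower (1.19 to 1.45).

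Among the factors of the early initiation complex, EIF2A, EIF2D and EIF1AX stood farthest from 1. EIF2A, which despite its symbol is a separate initiation factor and not the alpha subunit of eIF2, was at 26.0 FPKM (DLD1-W13CM) and 53.4 FPKM (S-CAFs-w13), 2.05-fold higher (1.87 to 2.26). EIF2D, another factor that can deliver tRNA without eIF2, was at 3.64 and 7.24 FPKM, 1.99-fold higher (1.45 to 2.75). The eIF2 subunits themselves spread around 1: EIF2S1, the alpha subunit that the stress kinases phosphorylate, was at 25.2 and 19.9 FPKM, 1.26-fold lower (1.14 to 1.40), and EIF2S3, the GTP-binding gamma subunit, at 70.4 and 83.4 FPKM. The 5 eIF2B genes had a median log2 ratio of 0.16 and none past 2-fold, from EIF2B3 (5.41 and 4.15 FPKM) to the catalytic subunit EIF2B5 (6.95 and 8.75 FPKM), with EIF2B1 the highest in level at 9.92 and 9.85 FPKM. EIF1, which keeps the scanning ribosome open for start codon choice, was at 73.7 and 88.7 FPKM. EIF1AX, which works beside EIF1, was at 32.9 and 16.7 FPKM, 1.97-fold lower (1.76 to 2.20), and EIF1B, the second eIF1 gene, at 4.87 and 7.57 FPKM, 1.56-fold higher (1.11 to 2.20).

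eIF3, the largest initiation complex, had 8 of 14 genes higher in S-CAFs-w13, none past 2-fold, and a median log2 ratio of 0.20. EIF3I had the highest level, at 92.7 and 88.0 FPKM, and EIF3A, the core scaffold subunit, was at 56.4 and 55.8 FPKM. The extremes were EIF3H, at 20.7 FPKM (DLD1-W13CM) and 29.3 FPKM (S-CAFs-w13), 1.42-fold higher (1.30 to 1.55), and the loosely bound subunit EIF3J, at 35.2 and 19.2 FPKM, 1.83-fold lower (1.61 to 2.08). EIF3B, a core subunit, was at 19.5 and 12.4 FPKM, 1.58-fold lower (1.43 to 1.74). The subunits of 1 complex thus differed in direction. EIF3C and EIF3CL are near-identical copies, at 5.42 and 4.61 FPKM and at 1.17 and 1.87 FPKM, and their separate values are uncertain.

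The RefSeq transcript starts were read for members with a listed promoter sequence (GRCh38.p14), and a pyrimidine start was counted where the first transcribed base is C and at least 4 further C or T follow, in any listed start, on the strand of the gene. Of 47 matched members 12 (25.5%) had such a start, beside 7.21% of 10737 protein-coding genes of the co-culture table and 4.07% of 35116 promoters. By complex it was found in 4 of 8 matched eIF3 genes, 2 of 3 eEF1 genes, 2 of 11 genes of eIF4F and its partners and 1 of 2 eEF2 genes. In the eIF2 group it was found in 3 of 4 genes, EIF2A and EIF2D, which are no eIF2 subunits, and the subunit EIF2S3, but not in the subunit EIF2S1. None of the 5 eIF2B genes, the 5 genes of eIF1 and eIF1A or the 6 of the eIF5 group had it. The 12 are printed because their RNA ratios are summarised as a group below. Their ratios did not all go one way, with 10 higher and 2 lower in S-CAFs-w13. Where several starts are listed the one with the longest run, or else the first, is shown. Each line gives 5 bases before the start and 20 transcribed bases, 5′ to 3′, with the pyrimidine run from the first transcribed base in capitals.
EEF1A1, chr6:73521013-73521037, minus strand: acgttCTTTTTCgcaacgggtttgc
EEF1B2, chr2:206159890-206159914, plus strand: cgggtCCTTTTTCCTCTCTTCagcg
EEF2, chr19:3985444-3985468, minus strand: gcgttCTCTTCCgccgtcgtcgccg
EIF2A, chr3:150546782-150546806, plus strand: ggtttCTCTTTCCgggacaacatgg
EIF2D, chr1:206612446-206612470, minus strand: cgggcCCTTTTCgcggccgggcccc
EIF2S3, chrX:24054951-24054975, plus strand: ccttcCTCTTTTggcaacatggcgg
EIF3D, chr22:36529147-36529171, minus strand: gtttcCTCTTTTCCTggtttctcaa
EIF3F, chr11:7987332-7987356, plus strand: gcctcCTTCTTTCTCgacaagatgg
EIF3K, chr19:38619183-38619207, plus strand: accacCTCTTCCTgttcccgtcctt
EIF3M, chr11:32583826-32583850, plus strand: gttccCTTTTCCggtcggcgtggtc
EIF4A2, chr3:186783572-186783596, plus strand: gctgtCTTTTCagtcgggcgctgag
EIF4B, chr12:53006451-53006475, plus strand: cgggtCTTTTgcgttctctttccct

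For contrast, the starts of the 4 members with a listed start that were lowest in S-CAFs-w13 relative to DLD1-W13CM are given in the same way. They were picked by their ratio and do not stand for all 35 matched members without a pyrimidine start, of which 10 were higher in S-CAFs-w13. With no C at the first transcribed base there is no run to mark.
EIF5, chr14:103334232-103334256, plus strand: tgttcagtcagagcgagaacattcc
EIF5A, chr17:7306994-7307018, plus strand: acccgaccacactagcgcgctagaa
EIF4G2, chr11:10807977-10808001, minus strand: gaagcacttccctaacttgcgcctg
EIF4EBP2, chr10:70404140-70404164, plus strand: cgcccgcttccggtcgtcgtcgtcg

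Only the count of pyrimidine starts was planned, and the split of RNA ratios by start was not. In co-culture 10 of the 12 members with a pyrimidine start were higher in S-CAFs-w13, with a median log2 ratio of 0.30. Those lower were EEF1B2 and EIF3K. Of the 35 matched members without it 10 were higher and 25 lower, with a median of -0.20. Members with no listed promoter sequence are outside this split, among them EEF1A2 and EEF1AKMT3, past 2-fold higher, and EEF1AKMT1, past 2-fold lower. Over all protein-coding genes the medians were 0.12 with the start (381 of 644 genes higher) and 0.01 without it (3879 of 7666 higher). Members with the start were also the more abundant ones, with a median of 55.2 FPKM against 9.88 FPKM. Among members whose mean reached 20 FPKM, a split added after the data were seen, 8 of 10 with the start were higher, with a median of 0.30, and 1 of 13 without it, with a median of -0.78. At the same level 112 of 164 protein-coding genes with the start were higher, with a median of 0.20, and 578 of 1051 without it, with a median of 0.05. With the authors' deposited table of log2 fold changes in place of the FPKM ratio the medians were 0.16 with the start and -0.40 without it. After knockdown 1 of 6 members with the start was higher, with a median log2 ratio of -0.02, beside 14 of 26 without it, with a median of 0.02. The grouping is a match of letters at annotated starts and not a measured start in these cells.

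**Figure D2:**
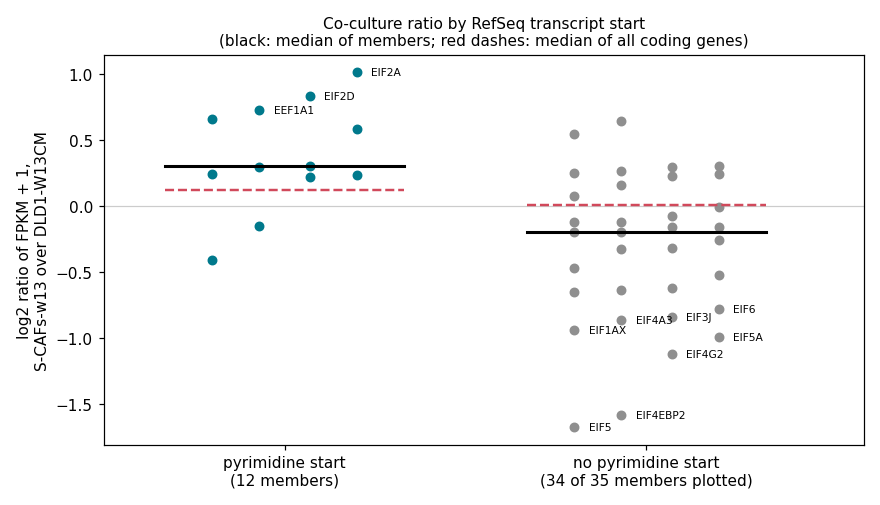
Log2 ratio of FPKM + 1, S-CAFs-w13 over DLD1-W13CM, for members with and without a pyrimidine start at a RefSeq transcript start; each point is a gene, black bars are members' medians (0.30 and -0.20) and red dashes the medians of all protein-coding genes (0.12 and 0.01). EIF1AY is not plotted; of the 12 genes with the start, 10 lie above 0.

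A list of 50 partners and regulators of these factors was read beside them. In S-CAFs-w13 29 of them were higher and 21 lower, with a median log2 ratio of 0.10, 3 past 2-fold higher and 0 past 2-fold lower, beside 9.08% and 7.92% of all genes. DDIT4, a stress-induced inhibitor of mTOR complex 1, was at 9.81 FPKM (DLD1-W13CM) and 104 FPKM (S-CAFs-w13), 10.6-fold higher (8.81 to 12.8). MKNK2, a kinase of eIF4E, was at 16.8 and 68.0 FPKM, 4.05-fold higher (3.69 to 4.45). PPP1R15B, which directs a phosphatase to the eIF2 alpha subunit, was at 36.3 and 91.4 FPKM, 2.52-fold higher (2.36 to 2.70). On the lower side, GSPT2, a GTPase of translation termination, was at 4.45 and 1.84 FPKM (2.42-fold lower, 1.59 to 3.77), and RPTOR, the scaffold of mTOR complex 1, at 5.18 and 2.35 FPKM (2.20-fold lower, 1.80 to 2.72), both short of 2-fold on the log2(FPKM + 1) scale. The eIF2 kinases on the list were all short of 2-fold: EIF2AK1 was at 30.5 and 40.7 FPKM, EIF2AK2 at 19.3 and 20, EIF2AK3 at 3.46 and 6.69, and EIF2AK4 at 9.24 and 13.4. ATF4, the stress factor whose translation depends on eIF2, was at 167 and 169 FPKM. Of the 50 partners, 40 were in the knockdown table, 23 higher and 17 lower, with none past 2-fold.

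After METTL1 knockdown the RNA of the factors was close to control, as was that of most genes in the table. Of 45 members there, 44 passed the filter on low values, EIF4E3 (0.532 FPKM in control input and 1.06 FPKM in knockdown input) being the exception. None was past 2-fold, beside 0.429% of 8400 genes higher and 0.56% lower; at such shares a count of 0 of 44 does not set the members apart. There were 19 higher and 25 lower, beside 51.2% of 8400 genes higher, and 38 of 44 lay within 1.25-fold, beside 6099 of 8400 genes. The members' median log2 ratio was -0.03, beside 0.01 over all genes. Summed over the 45 genes the level was 2848 FPKM in control input and 2800.1 FPKM in knockdown input.

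By log2 ratio the members farthest from control were EIF1B (-0.92), EEF1AKMT3 (0.54) and EIF4EBP1 (-0.39). EIF1B was at 5.30 FPKM in control input and 2.34 FPKM in knockdown input, 2.27-fold lower (1.61 to 3.22) from 106 and 52 recovered reads; it is short of 2-fold on the log2(FPKM + 1) scale and past it with a pseudocount of 0.1 or with the log2 fold change of the authors' deposited table. The main gene EIF1 was at 57.8 and 47.5 FPKM, 1.22-fold lower (1.15 to 1.30), and EIF1AD at 7.50 and 5.56 FPKM, while EIF1AX was at 12.9 and 14.5 FPKM. Thus 3 of the 4 genes of eIF1 and eIF1A in the table were lower. EIF2B3 was at 8.38 and 10.9 FPKM, 1.30-fold higher (1.12 to 1.51), EIF2B5 at 17.1 and 19.3 FPKM, and EIF2S1 at 20.6 and 22.3 FPKM. EIF4G1 was at 193 and 219 FPKM, 1.14-fold higher (1.11 to 1.16), EIF4B at 184 and 168 FPKM, EIF4E at 2.92 and 2.72 FPKM, and EIF3A at 199 and 196 FPKM. All 4 eEF1 genes in the table were slightly lower, the farthest being EEF1D at 64.5 and 57.3 FPKM. EEF2K was at 7.17 and 6.38 FPKM.

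The other members named by ratio, level or m7G were within 1.25-fold of control, the value in control input standing first. Both eIF4G relatives beside EIF4G1 were slightly lower, EIF4G2 at 132 and 126 FPKM and EIF4G3 at 18.6 and 16.2 FPKM. In eIF3, EIF3K was at 38.5 and 36.5 FPKM (23.5 and 21.1 FPKM in co-culture), EIF3H at 27.3 and 26.2 FPKM, EIF3J at 25.5 and 23.1 FPKM, EIF3B at 69.6 and 71.9 FPKM and EIF3C at 12.4 and 14.1 FPKM. EIF2S3 was at 46.8 and 46.7 FPKM, EIF2S2 at 46.7 and 46.9 FPKM (69.0 and 63.1 FPKM in co-culture) and EIF2B1 at 14.2 and 13.5 FPKM. EIF5B stood at 35.4 and 32.0 FPKM and EIF5A2 at 2.70 and 3.34 FPKM. EEF1B2 was at 154 and 153 FPKM, and EEF2KMT at 7.89 and 8.5 FPKM.

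The co-culture and knockdown ratios did not run together. Over 44 members the Spearman correlation of both log2 ratios was -0.07, beside 0.06 over 7945 genes, as a description over genes that share libraries. The sign was the same in 18 of 44 members (40.9%), beside 51.9% of all genes. EEF1AKMT3 was higher in both, at 1.18 FPKM in control input and 2.17 FPKM in knockdown input, 1.84-fold higher (1.24 to 2.78). EEF1AKMT1 was lower in both, at 2.93 and 2.18 FPKM (1.34-fold lower, 0.830 to 2.18), where the interval spans 1.

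**Figure D3:**
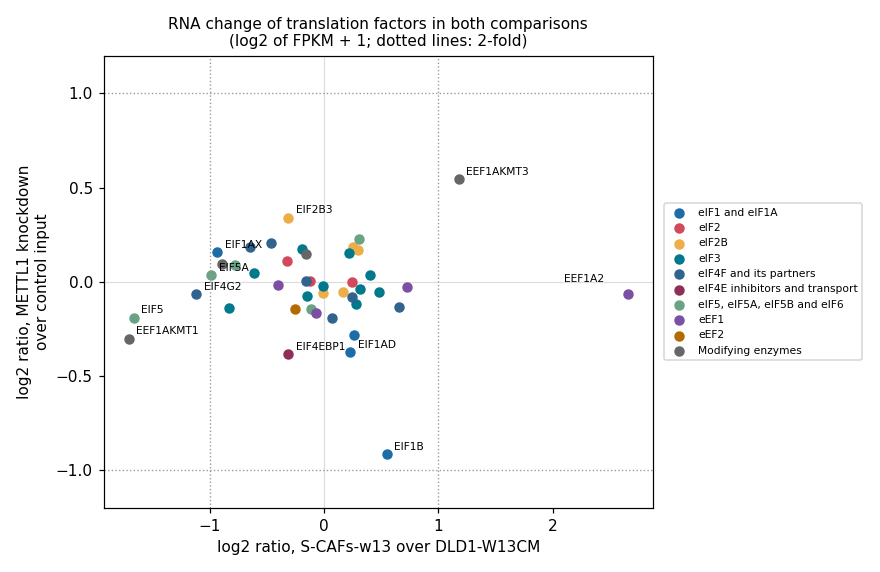
Log2 ratio of FPKM + 1 of 44 members in co-culture (x axis) and after METTL1 knockdown (y axis), coloured by complex, with dotted lines at 2-fold. Points spread along x and stay within 2-fold along y, with EIF1B the lowest on the y axis.

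The knockdown table lists 1 m7G peak for each of its 9450 genes, so each of the 45 members has 1 by layout. Further peaks of a gene would not be seen, and the locations and enrichments given describe the listed peak only. Members had a peak about as often as other genes: 45 of 60 (75.0%) were in that table, beside 74.7% of 10460 protein-coding genes whose co-culture mean reached 1 FPKM. Where the co-culture mean reached 20 FPKM the figures were 22 of 30 members (73.3%) and 82.8% of 1542 genes. Among the 15 members that are not in the table are EEF2, EIF2A, EIF4A2, EIF4EBP2, EIF3D and EIF3M. The authors' deposited table places 20 of the 45 peaks (44.4%) in the 5′ UTR, 16 (35.6%) in the coding sequence, 8 (17.8%) in an exon without a further class and 1 (EIF4A1) in the 3′ UTR, beside 49.5%, 29.5%, 18.6% and 2.06% of all peaks. Of 33 members with a listed RefSeq start 24 (72.7%) had a peak within 250 nt of it, beside 76.9% of 6965 genes; the EIF4A1 peak, classed as 3′ UTR, is one that holds its start. Peak bounds are given on GRCh38, on which 98.7% of 8515 peaks lay within the RefSeq gene of their symbol.

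Members had a median enrichment of 13.4 (IP over input) in the authors' deposited table, from 1.30 to 90.4, beside 12.4 over all peaks. It lists EEF1B2 as the highest at 90.4, at a peak spanning chr2:206159585-206160620 on the plus strand that holds the pyrimidine start printed above. EIF3K at 58.6 (chr19:38619082-38620389) and EIF1B at 52.4 (chr3:40309684-40310697) followed in the authors' deposited table, both with the RefSeq start inside the peak. The lowest in the authors' deposited table were EIF4G1 at 1.30 (chr3:184321824-184322003), EIF3B at 1.34 and EEF1D at 1.37. High and low enrichment thus occurred within the same complexes, as with EEF1B2 and EEF1D, which act in 1 exchange complex. Their listed peaks differ in location, the 5′ UTR for EEF1B2 and an exon for EEF1D. By the authors' deposited table members' 5′ UTR peaks had a median of 17.25 and their exon peaks 5.63, beside 14.9 and 9.43 over all such peaks. The part of location in the spread within complexes was not tested. EEF1A1, the most abundant member, had a fold enrichment of 4.69 in the authors' deposited table, and EIF5A one of 12.9. In the unplanned split by pyrimidine start, members with it had a median of 32.0 (6 peaks) and matched members without it 12.9 (27 peaks). Over all protein-coding genes the authors' deposited table gives 12.75 with the start and 12.8 without it. Across the 45 members the Spearman correlation of fold enrichment with mean input level was -0.27, beside -0.003 over all 9450 peaks, where input level enters the denominator of the enrichment.

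**Figure D4:**
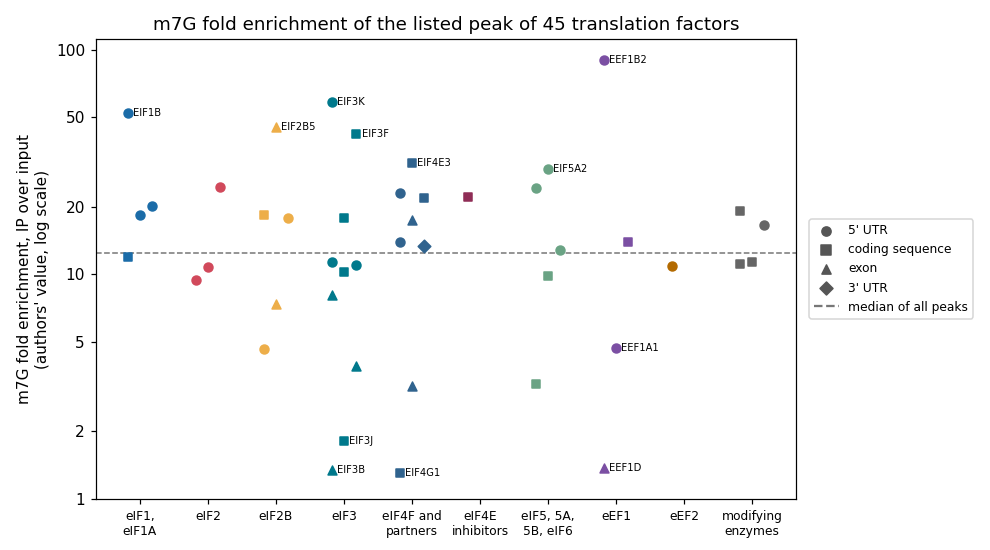
The authors' m7G fold enrichment (IP over input, log axis) of the listed peak of each of 45 members by complex; the marker shows the annotated location and the dashed line is the median of all peaks, 12.4. Members span 1.30 (EIF4G1) to 90.4 (EEF1B2).

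The change in m7G between the lines is given by the authors as a log2 value per peak with an FDR. It does not say which line is the numerator, so it was read as knockdown over control, as for their input fold change; read the other way all signs turn. The sample list holds 1 input and 1 IP library of each line, although the series design speaks of replications. The FDR was therefore read as coming from single libraries, and such an FDR does not cover the spread between cultures. By the authors' deposited table, 7 of 45 members had an FDR under 0.05, 4 higher and 3 lower, beside 3.07% of all peaks higher and 2.18% lower. All 7 were genes whose mean input reached 20 FPKM, where they are 7 of 24 members (29.2%) beside 14.9% of 1911 genes in the authors' deposited table, a background share added after the data were seen.

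The higher peaks in the authors' deposited table were those of EIF3K (log2 change 0.63, FDR 0.00513), EIF1 (0.53, FDR 0.0234, at chr17:41688885-41689244), EEF1D (0.24, FDR 0.0182) and EIF4G1 (0.23, FDR 0.0479). The lower ones in the authors' deposited table were EIF3J (-0.97, FDR 0.0182, at chr15:44550846-44554585), EIF5B (-0.24, FDR 0.0166, at chr2:99361419-99376565) and EEF1A1 (-0.21, FDR 0.000158, at chr6:73519514-73520209). The eIF3 subunits EIF3K and EIF3J were thus called in opposite directions. The called changes were small: their median size in the authors' deposited table was 0.24 on the log2 scale, beside 0.86 over all called peaks. Over called peaks of genes whose mean input reached 20 FPKM, the level of these members, it was 0.63. Of the 7 peaks 5 had a fold enrichment under 5 in the authors' deposited table, and EIF3K and EIF1 were those above it. That is 71.4%, beside 36.3% of all called peaks and 39.1% of those at 20 FPKM or more. The RNA of these 7 genes moved by at most 1.22-fold between the inputs.

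Over all 45 members the authors' deposited table had 16 peaks higher, 28 lower and 1 at 0, with a median log2 change of -0.21, beside 0.004 over all peaks. The lean lay in the less abundant genes: of 21 members with a mean input under 20 FPKM 18 were lower (85.7%, median -0.36), beside 48.8% of 7539 peaks of such genes, and 0 of the 21 had an FDR under 0.05, beside 2.81%, in the authors' deposited table. Of the 24 more abundant members 10 were lower in the authors' deposited table, with a median of 0.02. The largest sizes in the authors' deposited table belonged to low genes and went both ways. EEF1AKMT3 (-2.46, FDR 0.238), EIF4E3 (-2.15, FDR 0.436) and EEF2K (-1.18, FDR 0.656) were lower. EIF2B4 (1.55, FDR 0.664) and EEF1AKMT2 (1.06, FDR 0.151) were higher. Among fixed genes of the pathway, the authors' deposited table had EIF4E at -0.26 (FDR 0.676), EIF4EBP1 at 0.38 (FDR 0.163) and EIF5A at -0.65 (FDR 0.676). Of the 40 partners in the authors' deposited table, 2 had an FDR under 0.05 (5.25% of all peaks did, so this is about the background share), the termination factor ETF1 (0.43, FDR 0.00891) and MTOR (-1.59, FDR 0.00912).

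By complex, the authors' deposited table gives the 4 peaks of eIF1 and eIF1A a median fold enrichment of 19.3 (12 to 52.4) and a median log2 change of -0.43, with 3 of 4 lower. The 5 eIF2B peaks stood at 17.9 (4.64 to 45.3) and -0.48 in the authors' deposited table, with 4 lower and EIF2B4 the exception (1.55, FDR 0.664). For the 3 eIF2 subunits the authors' deposited table has 10.8 and -0.41. By the authors' deposited table none of these 8 peaks reached the FDR threshold, and 28 of all 45 members were lower. The 8 peaks of eIF4F and its partners had medians of 15.7 and -0.31 in the authors' deposited table, with 6 lower and EIF4G1 the one called, and it was called higher. The 10 eIF3 peaks were even, at 10.6 (1.34 to 58.6) and 0.01, with 5 higher, 4 lower and EIF3CL at 0 in the authors' deposited table. The group of eIF5, eIF5A, eIF5B and eIF6 had medians of 12.9 and -0.14 by the authors' deposited table, and the 4 eEF1 peaks 0.01 for the change. For the 4 modifying enzymes the median change was -0.10 in the authors' deposited table, between EEF1AKMT3 at -2.46 and EEF1AKMT2 at 1.06 (FDR 0.151).

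**Figure D5:**
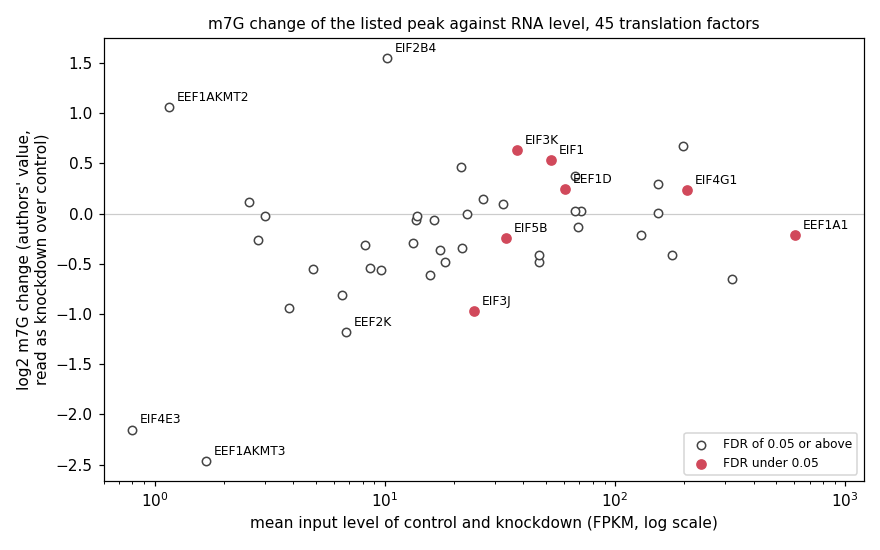
The authors' log2 m7G change of the listed peak, read as knockdown over control, against the mean input level (FPKM, log axis) for 45 members; filled red points have an FDR under 0.05. All 7 red points lie at 20 FPKM or more, and the largest changes belong to genes of low level.

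The EEF1AKMT3 peak lies at the locus of the targeted gene. It spans chr12:57772365-57773071 and covers 390 nt, of which 194 nt also belong to the METTL1 peak at chr12:57772555-57772793, annotated on the opposite strand. On GRCh38.p14 RefSeq starts METTL1, on the minus strand, at chr12:57772105, so that its peak lies 450 nt upstream of that start, and it starts EEF1AKMT3 at chr12:57772614, inside it. The METTL1 peak had a log2 change of -2.20 (FDR 0.635) and a fold enrichment of 31.3 in the authors' deposited table. The library kit is not stated in the labels to keep strand, and without strand the m7G changes of these overlapping peaks cannot be told apart. The input RNA of EEF1AKMT3 and METTL1 went in opposite directions, 1.84-fold higher and 1.77-fold lower in knockdown input.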

How the data were processed

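RNA-seq of 2 co-cultures and m7G MeRIP-seq of METTL1 knockdown and control cells were analysed from tables the authors deposited, 1 library per group. Expression is in FPKM computed by the authors, per the file headers for co-culture; the input columns carry no unit and were read as FPKM because they behave like the co-culture columns. Per the file headers, each gene also has the authors' log2 fold change and its p-value. Each peak has an enrichment ratio (IP over input), a log2 difference in m7G, and, per the file headers, log10 values of the FDR and p-value of that difference. The submitters' processing notes list these tools without roles: HISAT2 2.1.0, cutadapt 2.5, SAMtools 1.10, featureCounts 1.6.3, HOMER 4.10.4 and DESeq2 with no version. They list the builds hg38, GRCh38 and GRCm38, also without roles. The peak caller and strand setting are not given in the sources used here.

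Members and lists were chosen with earlier results of these data known. Values in all libraries are given for members past 2-fold, the highest and lowest of each complex by ratio and the highest by level, called m7G peaks, the 3 highest and lowest fold enrichments, and a fixed set of well-known factors; the rest are given by range and count, and some further members were named after their values were seen. Ratios of FPKM columns gave whole reads for 20745 of 20806 co-culture genes above 0 in both libraries and 9292 of 9348 knockdown genes (relative tolerance 1e-14, multiples up to 60). Of 9091 genes with a length recovered in both tables, 99.2% had lengths that were whole multiples of each other, and the longer was then used. True reads can be multiples, so the Clopper-Pearson 95% intervals are at their widest, and PCR copies are not independent molecules. The recovery was also run on simulated data in which the lengths of a random share of all genes were given. For the real co-culture table only lengths of mitochondrial genes were given, and lengths recovered there served the knockdown table. The simulation thus does not test how the library sizes were found. No count test was run, since there is 1 library per group and no residual degree of freedom. Starts and promoters are RefSeq GRCh38.p14; 6 RefSeq symbols of the same pattern in neither table were not analysed here. Tools were Python 3.11.15, numpy 2.4.6, pandas 2.3.3, scipy 1.17.1 and matplotlib 3.10.9. Alternatives were other pseudocounts, filters, scalings and m7G thresholds.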

Additional observations from a re-analysis of the deposited data

How the results depend on the processing

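With 1 library per group no library could be left out. No paired analysis was possible because each group holds 1 library. Over 12 results, 60 alternative values were computed, of which 44 stayed within the limits of the main value, 14 moved and 2 changed sign. Some of these outcomes were fixed in advance, so the tally does not measure robustness. All 60 members passed the co-culture filter, so leaving it out could not change their values. Reading m7G as control over knockdown only turns signs, and its median is counted among the sign changes. The members' co-culture median became 0.031 with a mean of at least 5 FPKM, where the eEF1 median also turned to 0.33, and -0.22 with the authors' log2 fold change. The count of members past 2-fold lower became 9 with that fold change, adding EIF5A, EIF1AX, EIF3J, EIF4A3 and EEF2KMT, and 7 without mitochondrial genes; higher calls were 42.9% of the main 7 (53.4% of all genes past 2-fold), 25% (41.3%) with that fold change, 22.2% (47.1%) without mitochondrial genes and 28.6% (51.6%) centred. The eEF2 median turned to -0.01 with the authors' values. In knockdown input 1 member, EIF1B, was past 2-fold lower with a pseudocount of 0.1 and with the authors' log2 fold change; the eIF2 median turned to -0.01 with the latter, and that of the eIF5 group to -0.05 at 5 FPKM. Called m7G peaks became 7 higher and 9 lower at an unadjusted p under 0.05, 1 and 1 at FDR under 0.01, and 2 and 0 at a fold enrichment of at least 5. Read as control over knockdown, the median m7G change was 0.214. The added split at 20 FPKM moved the median of members without a pyrimidine start to -0.78. The IP depth was not analysed here, and EEF1AKMT1 rests on 2 reads in S-CAFs-w13.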
